A study of Mus musculus with 6 samples.

Results

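RNA levels were compared for 41 genes of glucose uptake, glycolysis, lactate exchange, glycerol 3-phosphate formation and the pentose phosphate pathway in mouse 2-cell embryos. The genes were taken by their symbols from a list of these pathways, and they are 41 of the 48967 genes for which counts could be summed. Ldhb, Pkm and G6pdx had the highest levels per kilobase, the main glucose transporter and hexokinase genes were near the median of all genes tested, and many isozyme genes were low. None of the listed genes passed the test between delipidated and control embryos. The summed level of the genes of lower glycolysis was lower in all 3 delipidated libraries than in any control library. No other role had a sum without overlap, and Pkm made up 69.0% of this sum. Of all single genes tested, 8.86% did not overlap between the groups. The largest differences in CPM were those of Pkm and Gapdh. The groups overlapped when each gene of lower glycolysis was counted by the exonic part with most counts alone. The sums of stromal, leukocyte and red cell markers were lower without overlap too, and each delipidated library had fewer genes with any count than any control. Among the enolases, low counts of Eno2 were seen mainly in the controls and low counts of Eno3 mainly in the delipidated embryos. Both genes reached the count needed for testing only in the group where they were higher, so they had to differ and this supports nothing.

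The study removed lipid droplets from zygotes and asked how the embryos respond while they form new droplets. RNA was sequenced from 3 control and 3 delipidated libraries, each a pool of 3 embryos at the 2-cell stage. All embryos were wild type (wt) F1 (C57Bl/10 X CBA/H), were kept in fatty acid-free KSOM, a simple embryo medium, from 0.5 to 2.0 dpc (days post coitum) and carry the time label day 2. Embryos of several females had been pooled and allocated at random, so the 3 libraries of a group come from a common stock of embryos and not from separate litters. The delipidated zygotes were placed in cytochalasin B, which loosens the actin cortex, and were centrifuged in 2 steps. A laser then opened the zona pellucida and the droplets were aspirated with a pipette. The treatment label of the controls names in vitro culture from zygotes and no centrifugation, cytochalasin B or opening of the zona, so the removal of lipid and these manipulations cannot be told apart.

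The counts that could be given to genes were 12164963, 16165958 and 12980787 in control libraries 1, 2 and 3. They were 20059460, 16332103 and 14683741 in delipidated libraries 1, 2 and 3. Genes with 1 or more counts numbered 22855, 22437 and 20582 in the controls and 17091, 19408 and 20158 in the delipidated libraries, where they were fewer in every library although the totals were not smaller as a group. All values below are listed in that order of libraries. Levels are in CPM, counts per 1000000 counts of the tested genes after TMM scaling. Single genes are ranked by level only as CPM per kilobase of a gene's exonic parts. Sums over lists, a gene's share of such a sum and differences between groups are in CPM, not divided by length, unless given per kilobase. A count of 0 allows up to 3 counts, which corresponds to between 0.148 and 0.253 CPM depending on the library. Such limits, and the intervals given for shares, cover counting error only.

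The stage on the label was checked against marker genes. All 17 genes of 2-cell stage genome activation, among them Zscan4d, Zfp352 and Tcstv3, had counts in every library, with summed levels of 1260, 766 and 1050 CPM in the controls and 1030, 1060 and 1290 CPM in the delipidated embryos. The 17 maternal oocyte transcripts, among them Zp2, Gdf9 and Dppa3, were likewise counted in every library, at summed levels of 3310, 2260 and 3130 CPM and of 2690, 2720 and 3860 CPM. Both lists overlapped between the groups.

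Glucose enters a cell through facilitative transporters, is trapped as glucose 6-phosphate by hexokinases, and is then either split by glycolysis to pyruvate or oxidized by the pentose phosphate pathway to NADPH and ribose 5-phosphate. Cleavage-stage mouse embryos are known to live mainly on pyruvate and lactate and to use little glucose until later stages, although a small supply of glucose to the pentose phosphate and hexosamine pathways is needed. Glycolysis also supplies dihydroxyacetone phosphate, the precursor of the glycerol backbone of the triacylglycerols that fill lipid droplets.

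Of the 41 genes, 38 had enough counts to be tested with edgeR, and Slc2a2, Aldoc and Slc16a7 had not. After TMM scaling, the summed levels of the listed genes corresponded to 0.217%, 0.206% and 0.221% of the tested counts in the controls and 0.187%, 0.187% and 0.226% in the delipidated libraries. These values include the TMM factors and are not shares of the raw counts. Their median level was 3.82 CPM per kilobase beside 3.47 CPM per kilobase over all genes tested, and 3 of them, Ldhb, Pkm and G6pdx, were in the top 10% of tested genes. In the comparison of the groups, edgeR called 0 of the 38 at an adjusted p under 0.05 and a log2 fold change beyond 1, and 0 of all 16020 genes tested (0%). DESeq2 without a filter on low counts called 9 genes higher and 40 lower in the delipidated embryos and none of the listed genes, whose lowest adjusted p with it was 0.273. At an unadjusted p under 0.05, edgeR had 3 of the 38, beside 463 of all genes tested (2.89%), and DESeq2 without a filter had 4 of 41, beside 1341 of 30967 genes (4.33%). With edgeR these were Eno3, higher in delipidated embryos (1.15% of all genes), and Eno2 and Gapdh, lower (1.74% of all genes). Eno2 and Eno3 reached the count needed for testing only in the group where they were higher, so they had to differ and their place among the 3 supports nothing. Of the other 36 listed genes 1, Gapdh, was at an unadjusted p under 0.05, beside 2.33% of all genes that did not pass by 1 group alone, and 4 did not overlap, beside 7.85%. The libraries of the groups did not overlap for 6 listed genes, beside 8.86% of all genes tested. Eno3 was the 1 gene higher without overlap (3.81% of all genes), and Gapdh, Eno2, Pkm, Gpd1 and Rpia were the 5 lower without overlap (5.05% of all genes). The median log2 fold change of the 38 was -0.12, with 18 positive and 20 negative, beside 0.0 over all genes tested with 8004 positive and 8016 negative. Adjusted p-values were 1.00 for all 38. Unadjusted edgeR p-values were 0.0245 for Eno2, 0.0323 for Gapdh, 0.0348 for Eno3, 0.0623 for Pkm and 0.0945 for Gpd1, and they lay between 0.118 and 0.97 for the other 33. With a library left out, the listed genes at an unadjusted p under 0.05 numbered 0 of 39 without control replicate 1 (beside 3.59% of all genes tested), 4 of 40 without control replicate 2 (3.43%), 0 of 39 without control replicate 3 (2.2%), 3 of 39 without delipidated replicate 1 (4.09%), 1 of 40 without delipidated replicate 2 (3.81%) and 2 of 39 without delipidated replicate 3 (5.61%). Over all genes the count was 713 without delipidated replicate 1 and 993 without delipidated replicate 3, where the median of the listed genes was -0.30. These p-values measure the spread between pools of embryos, and the median standard error of a log2 fold change was 0.495 for the listed genes and 0.591 over all genes tested. In pools of whole embryos, fewer cells with a transcript and less of it per cell cannot be told apart.

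**Figure D1:**
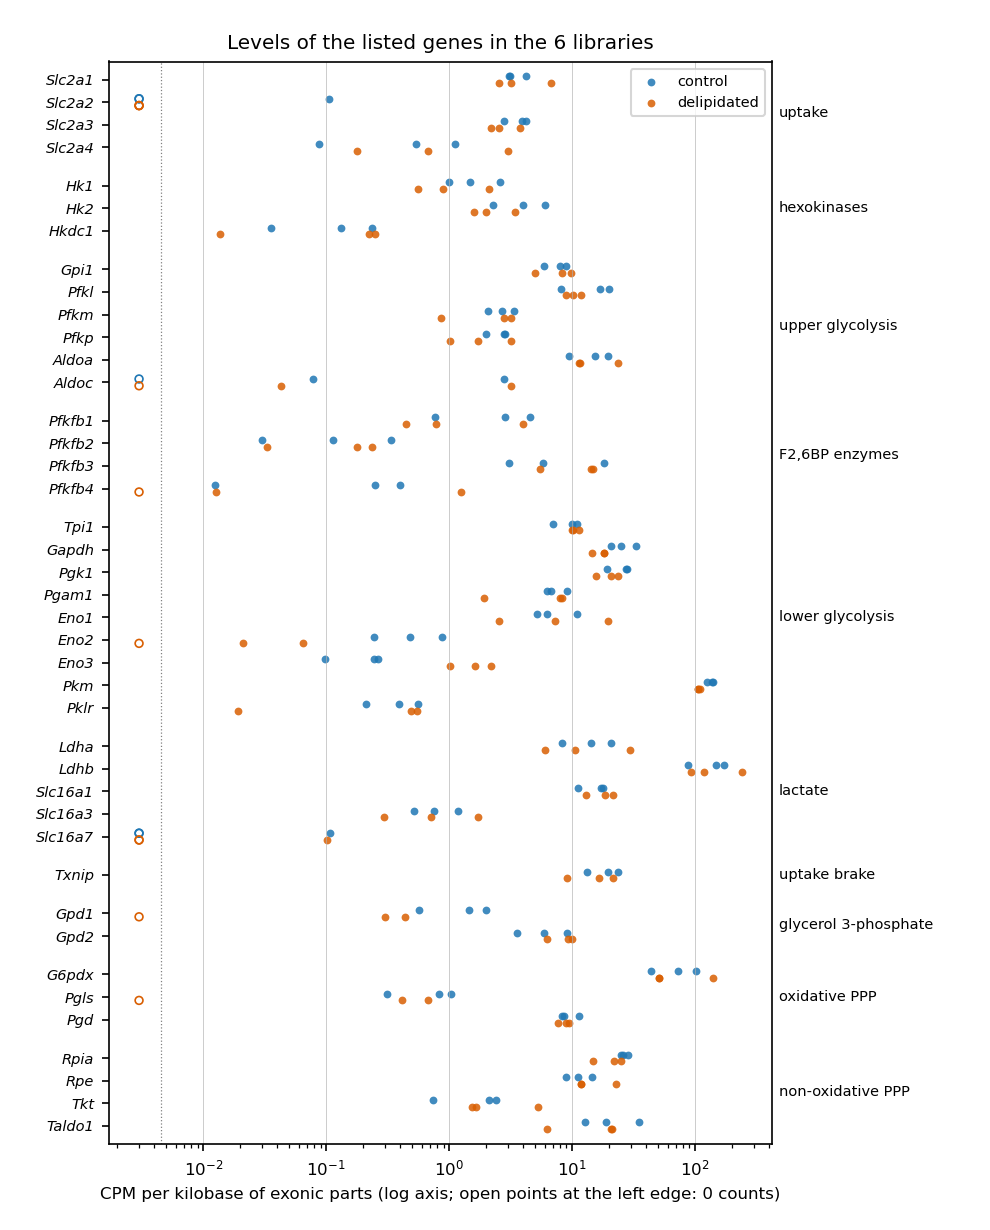
Level of each of the 41 genes in the 6 libraries, in CPM per kilobase of exonic parts on a log axis, with control libraries in blue, delipidated libraries in orange and libraries with 0 counts as open points left of the dotted line. Ldhb, Pkm and G6pdx lie highest, and the points of the groups are apart for Eno3, Gapdh, Eno2, Pkm, Gpd1 and Rpia.

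The uptake genes were modestly expressed. Slc2a1 encodes GLUT1, the widely expressed facilitative glucose transporter, and its levels were 10.8, 14.9 and 11 CPM in the controls and 11.1, 8.85 and 23.7 CPM in the delipidated embryos. Delipidated library 3 was the highest and delipidated library 2 the lowest, so the groups overlapped, and the log2 fold change was 0.25 (SE 0.50). Without delipidated replicate 3 it was -0.30. Slc2a3 encodes GLUT3, a transporter with a high affinity for glucose. Its levels were 20.2, 30.7 and 28.5 CPM in the controls and 18.3, 27.4 and 16 CPM in the delipidated embryos, which overlapped at a log2 fold change of -0.37 (SE 0.39). Per kilobase, Slc2a1 made up 38.9% to 56.5% of the 4 listed glucose transporters and Slc2a3 18.4% to 58.3%. The insulin-responsive transporter gene Slc2a4 had between 4 and 148 counts per library, 84 of the 148 in delipidated library 3 falling in its first exon, where the other 5 libraries had 0. The liver and islet transporter gene Slc2a2 had 10 counts in control library 2 and 0 in the others.

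Txnip encodes an arrestin-like protein that draws glucose transporters from the cell surface and whose transcription follows glucose. Its levels were 41.3, 61.6 and 73.4 CPM in the controls and 52.1, 28.4 and 67.8 CPM in the delipidated embryos. Delipidated library 2 was the lowest of the 6 and the other libraries were mixed between the groups. The log2 fold change was -0.25 (SE 0.36), and it was 0.03 without delipidated replicate 2. Of the Txnip counts, 29.3% lay in parts that overlap Gm15441 on the opposite strand, and those counts can come from either gene. The library kit keeps the strand, but the counting did not use it, since the 14 pairs of parts with the same ends on both strands and any count had equal counts in all 6 libraries.

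Among the hexokinases, Hk2, the isozyme typical of insulin-sensitive and growing tissues, had the highest level per kilobase and made up 59.4% to 73.3% of the 3 listed genes. Its levels were 13.6, 36.0 and 23.8 CPM in the controls and 11.8, 20.5 and 9.46 CPM in the delipidated embryos. Control libraries 2 and 3 were the highest, while control library 1 lay among the delipidated libraries, and the log2 fold change was -0.82 (SE 0.48), or -0.42 without control replicate 2 and -0.07 in the part with most counts alone. For Hk1, the hexokinase found in most tissues, the levels were 8.44, 22.2 and 12.7 CPM in the controls and 7.55, 17.9 and 4.80 CPM in the delipidated embryos. They overlapped, at a log2 fold change of -0.52 (SE 0.60), which ranged from -1.23 without delipidated replicate 2 to -0.07 without control replicate 2. For both genes control library 2 was the highest and delipidated library 3 the lowest. Hkdc1, a hexokinase domain gene, had between 1 and 23 counts.

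In upper glycolysis, Aldoa and Pfkl had the highest levels per kilobase. Pfkl encodes the liver subunit of phosphofructokinase, the enzyme of the committed step. Its levels were 87.2, 35.7 and 74.7 CPM in the controls and 51.6, 44.8 and 39.5 CPM in the delipidated embryos. Control libraries 1 and 3 lay above all others and control library 2 below, and the log2 fold change was -0.54 (SE 0.35), or -0.27 without control replicate 1 and -0.84 without control replicate 2. Per kilobase, Pfkl made up 56.8% to 86.2% of the 3 phosphofructokinase genes, and the muscle gene Pfkm and the platelet gene Pfkp shared the rest. The first exon of the major Pfkm transcripts lies opposite Senp1, and 30.7% of the counts of Pfkm came from that part. Aldolase A (Aldoa), which splits fructose 1,6-bisphosphate, was measured at 74.3, 35.7 and 57.4 CPM in the controls and at 42.8, 43.9 and 88.4 CPM in the delipidated embryos. Delipidated library 3 was the highest and control library 2 the lowest. The log2 fold change was 0.07 (SE 0.38), and it was -0.17 without control replicate 2 and -0.37 without delipidated replicate 3. Gpi1, whose product isomerizes glucose 6-phosphate, had 32.3 to 63.5 CPM and a log2 fold change of 0.01. Aldoc was uneven, with 3, 0 and 120 counts in the controls and 208, 0 and 2 counts in the delipidated embryos.

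The Pfkfb genes encode enzymes that make and break fructose 2,6-bisphosphate, the strongest activator of phosphofructokinase. Pfkfb3, the form with the highest ratio of kinase to phosphatase activity, was measured at 43.5, 138 and 23.0 CPM in the controls and at 111, 108 and 41.7 CPM in the delipidated embryos. Control library 2 was the highest of the 6 and control library 3 the lowest, so the groups overlapped. The log2 fold change was 0.34 (SE 0.57), and it was -0.07 without control replicate 3 and 1.38 without control replicate 2. Pfkfb1, first known from liver and muscle, was measured at 18.1, 3.08 and 11.5 CPM in the controls and at 1.78, 3.13 and 16 CPM in the delipidated embryos. Levels were above 10 CPM in control libraries 1 and 3 and delipidated library 3 and below 4 CPM in the other 3, and the log2 fold change was -0.65 (SE 0.86), or -0.04 without control replicate 1 and -2.15 without delipidated replicate 3. The 2 genes were uneven in opposite ways, so that Pfkfb3 made up 93.3% to 96.9% of the 4 Pfkfb genes per kilobase in control library 2 and delipidated libraries 1 and 2 and 48.5% to 52.4% in the others. Pfkfb2 had between 3 and 24 counts per library and Pfkfb4 between 0 and 87.

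Lower glycolysis runs from triose phosphates to pyruvate. Of the 4 listed genes without overlap that did not pass by 1 group alone, it held Gapdh and Pkm, both lower. Over all genes that did not pass by 1 group alone, 7.85% did not overlap. Eno2, lower, and Eno3, higher, also did not overlap, but they were tested by the counts of 1 group alone and so had to differ. The 9 genes summed to 810, 798 and 845 CPM in the controls and to 727, 638 and 629 CPM in the delipidated embryos. Every delipidated library was below every control library, with means of 817.6 ± 24.1 and 664.8 ± 54.4 CPM (SD, n = 3) and a log2 ratio of -0.30. In the part with most counts of each gene alone the sums overlapped, at 343, 372 and 369 CPM in the controls and 363, 317 and 280 CPM in the delipidated embryos, with a log2 ratio of -0.18 and a median log2 fold change of -0.10. Pkm made up 69.0% of the sum. Of the 10 roles this was the 1 whose sum did not overlap, and among the other pathway lists the sum of other hexose and lactate transporters was also lower without overlap, at 98.3, 104 and 103 CPM and at 96.9, 96.8 and 95.1 CPM. The sums of the stromal, leukocyte and red cell markers, given below, were lower without overlap as well, and genes with any count were fewer in every delipidated library. The part of either in the sum of lower glycolysis was not tested. The summed level of all 41 genes overlapped, at 2170, 2060 and 2210 CPM in the controls and 1870, 1870 and 2260 CPM in the delipidated embryos. Within lower glycolysis 3 genes had a positive and 6 a negative fold change, the median was -0.28, and 0 were called by edgeR. Gapdh was at an unadjusted p under 0.05, as were Eno2 and Eno3, which were tested by the counts of 1 group alone and had no value at a mean count of at least 50. The median was -0.46 without delipidated replicate 1 and -0.15 without delipidated replicate 3.

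Pkm (ENSMUSG00000032294, chr9:59656368-59679375, forward strand) encodes the pyruvate kinase of most tissues other than liver and red cells. It was measured at 534, 588 and 587 CPM in the controls and at 448, 444 and 468 CPM in the delipidated embryos. The libraries were close within each group and did not overlap between them. The means were 570.1 ± 30.8 and 453.3 ± 12.6 CPM (SD, n = 3), the log2 fold change was -0.33 (SE 0.16) and the adjusted p was 1.00. Leaving out any 1 library gave log2 fold changes from -0.36 to -0.31. Pklr, the liver and red cell gene, had at most 32 counts in a library, so Pkm made up 99.5% to 100% of pyruvate kinase per kilobase. All 33 parts of Pkm carry a joined identifier with an overlapping gene, and its counts rest on the parts that could be given to Pkm alone.

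Gapdh (ENSMUSG00000057666, chr6:125161715-125166467, reverse strand) encodes glyceraldehyde 3-phosphate dehydrogenase. Its levels were 137, 85.8 and 103 CPM in the controls and 74.6, 60.1 and 75.2 CPM in the delipidated embryos. All delipidated libraries were below all controls, the highest value was that of control library 1, and the log2 fold change was -0.63 (SE 0.26, adjusted p = 1.00). Its size depended on which parts were counted. In the part with most counts alone the log2 fold change was -0.08. Pgk1, which encodes phosphoglycerate kinase, the first step that yields ATP, was measured at 62.3, 61.2 and 42.8 CPM in the controls and at 53.3, 46.5 and 35 CPM in the delipidated embryos. Those overlapped, at a log2 fold change of -0.30 (SE 0.30). For Pgk1 it was -0.15 without delipidated replicate 3, -0.46 without control replicate 3 and -0.11 in the part with most counts alone. Tpi1, at 19.3 to 31.4 CPM, and Pgam1, at 3.53 to 16.8 CPM, had log2 fold changes of 0.17 and -0.28.

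The enolases convert 2-phosphoglycerate to phosphoenolpyruvate, and each of the 3 listed genes has its own tissue pattern. Eno2 (ENSMUSG00000004267, chr6:124760053-124769673, reverse strand), best known from neurons, had 27, 19 and 54 counts in the controls and 2, 5 and 0 counts in the delipidated embryos. All controls were above all delipidated libraries, and the log2 fold change was -4.12 (SE 1.59, adjusted p = 1.00). The control counts lay in 11 of the 47 parts of Eno2 and the delipidated counts in 1 part, and no part had counts in both groups. The delipidated libraries also had fewer genes with any count, and the part of this in the low counts of Eno2 and of Gpd1 was not tested. Eno3 (ENSMUSG00000060600, chr11:70657202-70662513, forward strand), best known from muscle, had 2, 7 and 6 counts in the controls and 36, 46 and 54 counts in the delipidated embryos. Here the order was turned, with all delipidated libraries above all controls at a log2 fold change of 2.97 (SE 1.24, adjusted p = 1.00). Eno2 and Eno3 were each tested by the counts of 1 group alone and so had to differ. A read that spans several parts is counted in each of them, and the highest count of Eno3 in a single part was 2, 7 and 3 in the controls and 9, 11 and 17 in the delipidated embryos. For Eno2 that highest count was 9, 12 and 11 in the controls and 2, 5 and 0 in the delipidated embryos. Eno1, the enolase of most tissues, ranged from 13.8 to 105 CPM, with both the lowest and the highest value in the delipidated embryos and a log2 fold change of 0.39 (SE 0.58). Per kilobase, Eno1 made up 90.6% to 91.5% of enolase in the controls and 94.9%, 81.0% and 54.0% in the delipidated libraries. Eno3 made up 1.41%, 4.26% and 2.17% in the controls and 4.97%, 18.2% and 46.0% in the delipidated libraries. The 46.0% was in delipidated library 3, where Eno1 was at its lowest, 13.8 CPM. These shares rest on the few counts of Eno3 and were not tested.

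**Figure D2:**
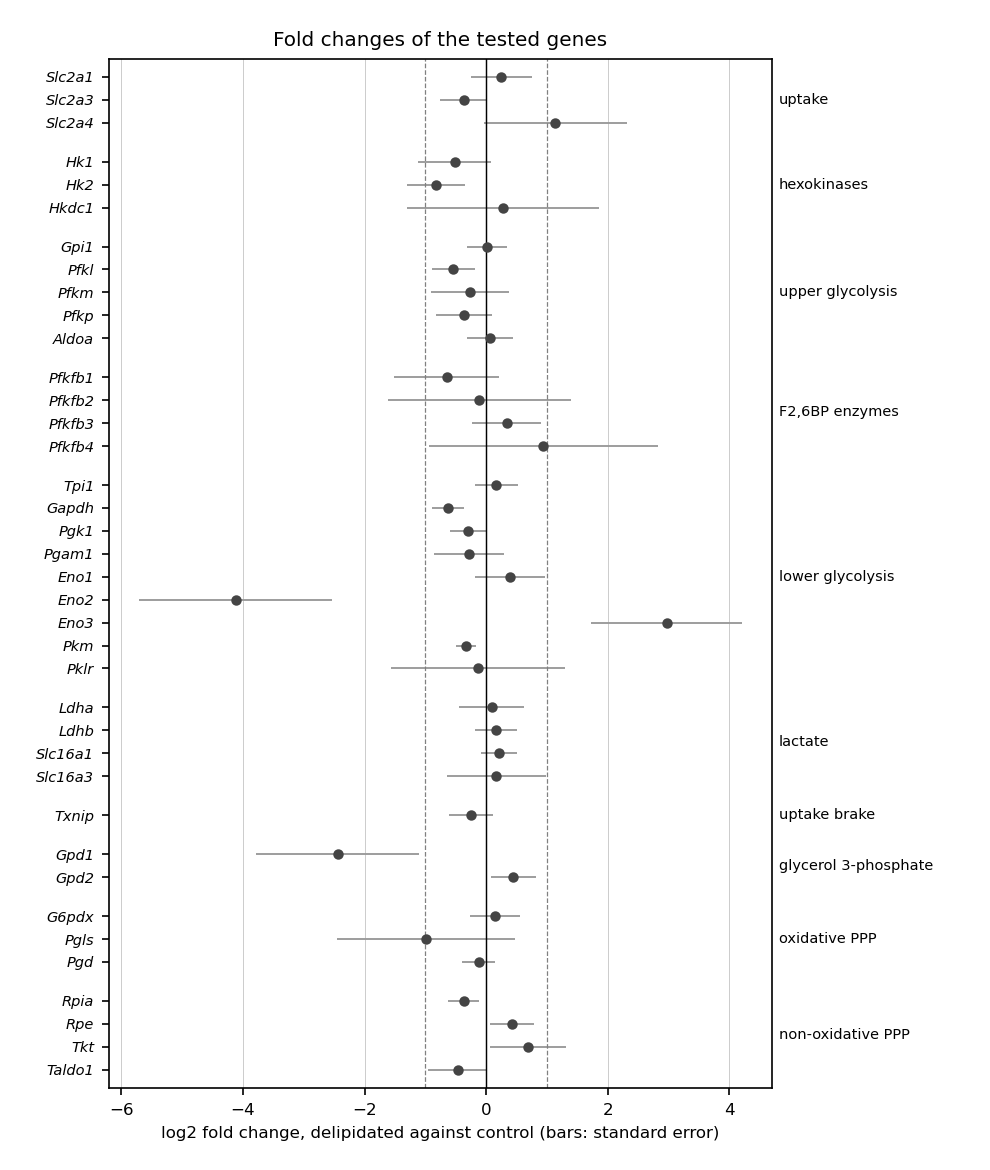
Log2 fold change of each of the 38 tested genes, delipidated against control, with dashed lines at 1 and -1. Bars show the standard error derived from the fold change and the F statistic of the edgeR test. Eno2, at -4.12, and Eno3, at 2.97, lie farthest from 0, and both have wide bars. Both were tested by the counts of 1 group alone and so had to differ.

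Markers of other cell types were read as well, as 5 lists with 43 genes. Of the 16 tested, edgeR called 0, and Vim and Col1a1, both lower, had an unadjusted p under 0.05. Both were tested by the counts of the controls alone and so had to differ, and of the other 14 markers 0 had such a p. DESeq2 without a filter called 2 of 37, Vim and Axl, and had 7 at an unadjusted p under 0.05 (beside 4.33% of all genes), and edgeR without a filter called Vim, Axl and Cyp11a1. Without a filter on low counts, the adjusted p of Vim was 1.07e-10 with DESeq2 and 5.7e-12 with edgeR. It was 0.0721 with edgeR as in the main test and 0.00508 with the replicate number as a block, where Vim was called. It was 0.989 with limma-voom and between 0.13 and 1.00 with a library left out. The 9 stromal markers summed to 24.6, 18.9 and 46.0 CPM in the controls and to 1.93, 3.50 and 4.09 CPM in the delipidated embryos. Per kilobase their most abundant gene was Vim, the intermediate filament of mesenchymal cells, with 152, 145 and 300 counts in the controls and 0 in every delipidated library, and Col1a1, Axl, Col3a1, Pdgfrb and Lum were also at 0 in every delipidated library, the last 3 also in 1 or 2 of the controls. All 4 stromal genes tested had negative fold changes. The 3 stromal genes with counts after delipidation overlapped between the groups, with Dcn at 0 in the controls and 27 counts in delipidated library 3, Col1a2 at 14, 48 and 15 counts and at 0, 0 and 27 counts, and Pdgfra at 30, 83 and 21 counts and at 39, 57 and 4 counts. Any count was seen for 7, 6 and 7 of the 9 genes in the controls and for 1, 1 and 3 after delipidation, and the stromal sum was several times lower in each of the latter than in any control. The 8 leukocyte markers, of which Cd74 was the most abundant per kilobase, summed to 14.8, 10.9 and 11.9 CPM and to 6.67, 8.66 and 5.29 CPM, with Ptprc at 0 in 3 libraries. The 4 leukocyte genes tested overlapped between the groups, 3 with negative fold changes and Cd52, at 0, 3 and 29 counts and at 49, 19 and 11 counts, with a log2 fold change of 0.87. The 6 red cell markers summed to 4.05, 3.99 and 4.94 CPM and to 0, 1.47 and 0.847 CPM, with Hba-a2 the most abundant per kilobase and the globin genes Hbb-bs and Hbb-bt at 0 in all 6 libraries. These 3 of the 5 sums were lower without overlap in the delipidated embryos, and the sums were not tested. Cumulus cells had been stripped from the zygotes with hyaluronidase. The 13 cumulus and granulosa cell markers overlapped, at 6.24, 10.3 and 66.7 CPM and at 2.12, 9.77 and 12.1 CPM, with Tnfaip6 the most abundant per kilobase, Cyp11a1 at 49.6 CPM in control library 3, and Ptx3 and Foxl2 at 0 throughout. The 7 oviduct markers overlapped too, at 88.0, 253 and 127 CPM and at 175, 206 and 117 CPM, and 90.2% of their sum was Epcam, which embryos also express, with Wfdc2 at 0. The part of such cells in the counts of Eno2, Gapdh, Pkm, Gpd1 or Rpia was not tested.

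Lactate dehydrogenase interconverts pyruvate and lactate, and monocarboxylate transporters carry both across the membrane. Ldhb (ENSMUSG00000030246, chr6:142490249-142507957, reverse strand), the subunit that favors lactate oxidation and is known as the form of the mouse egg, had the highest level per kilobase of all 41 genes, 143 CPM per kilobase over the 6 libraries. It was measured at 270, 137 and 231 CPM in the controls and at 146, 187 and 379 CPM in the delipidated embryos. Delipidated library 3 was the highest and control library 2 the lowest, and the log2 fold change was 0.16 (SE 0.35). It was -0.08 without control replicate 2 and -0.36 without delipidated replicate 3. Ldhb made up 86.0% to 95.4% of the sum of Ldha and Ldhb per kilobase, with means of 89.7 ± 5.02% in the controls and 91.6 ± 2.44% in the delipidated embryos (SD, n = 3). Ldha, the subunit that prevails in glycolytic tissues, ranged from 19.8 to 98.0 CPM at a log2 fold change of 0.09. Slc16a1, which encodes the transporter MCT1, was measured at 49.3, 78.4 and 76.1 CPM in the controls and at 95.4, 82.4 and 57.4 CPM in the delipidated embryos. The groups overlapped at a log2 fold change of 0.21 (SE 0.30), or 0.03 without control replicate 1 and -0.08 in the part with most counts alone. Slc16a1 made up 91.5% to 98.6% of the 3 transporter genes per kilobase. Slc16a3, the lactate exporter MCT4 of glycolytic cells, had 1.58 to 9.15 CPM, and Slc16a7 (MCT2) had 15 counts in control library 1, 17 counts in delipidated library 3 and 0 in the others.

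Glycerol 3-phosphate is made from dihydroxyacetone phosphate by the cytosolic dehydrogenase Gpd1 and turned back by the mitochondrial dehydrogenase Gpd2. Gpd1 (ENSMUSG00000023019, chr15:99717515-99725005, forward strand) had 20, 98 and 57 counts in the controls and 18, 21 and 0 counts in the delipidated embryos. In CPM these were 1.69, 5.93 and 4.33 in the controls and 0.889, 1.29 and 0 in the delipidated embryos, so all controls were higher, control library 1 by little. The log2 fold change was -2.44 (SE 1.34, adjusted p = 1.00), or -1.05 in the part with most counts alone, and 29.9% of the counts lay opposite Gm16537. Gpd2 was measured at 23.3, 60.0 and 38.5 CPM in the controls and at 65.4, 60.2 and 41.1 CPM in the delipidated embryos. Control library 1 was the lowest and the groups overlapped at a log2 fold change of 0.45 (SE 0.37), which was 0.18 without control replicate 1 and 0.85 without control replicate 2. Per kilobase, Gpd2 made up 86.2%, 82.1% and 80.1% of the 2 genes in the controls and 97.1%, 95.5% and 100% in the delipidated embryos. The means of that share were 82.8 ± 3.11% and 97.5 ± 2.29% (SD, n = 3), and the difference was not tested. The list of other glycolysis genes holds Gpd1l, a cytosolic relative of Gpd1, which had 231, 308 and 229 CPM in the controls and 273, 291 and 220 CPM in the delipidated embryos, or 50.9 CPM per kilobase beside 0.795 for Gpd1 and 7.34 for Gpd2. It overlapped, at a log2 fold change of 0.03 (SE 0.21).

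The oxidative branch of the pentose phosphate pathway yields NADPH. G6pdx (ENSMUSG00000031400, chrX:74409483-74429194, reverse strand), the X-linked glucose 6-phosphate dehydrogenase that commits glucose to the pathway, came after Ldhb and Pkm in level, at 76.7 CPM per kilobase. Its levels were 316, 134 and 223 CPM in the controls and 156, 156 and 431 CPM in the delipidated embryos. As for Ldhb, delipidated library 3 was the highest and control library 2 the lowest. The log2 fold change was 0.14 (SE 0.41), and it was -0.12 without control replicate 2 and -0.52 without delipidated replicate 3. Pgd, the second NADPH-forming dehydrogenase, was steady at 53.3, 73.0 and 55.6 CPM in the controls and 60.8, 57.2 and 49.4 CPM in the delipidated embryos. The groups overlapped, at a log2 fold change of -0.12 (SE 0.27), which was 0.04 without control replicate 2. Pgls, the lactonase between them, had 11, 41 and 41 counts in the controls and 25, 33 and 0 counts in the delipidated embryos. Per kilobase, G6pdx was thus far above the 2 later enzymes of the branch, at 76.7 beside 9.03 for Pgd and 0.545 for Pgls.

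In the non-oxidative branch, which links ribose 5-phosphate to glycolysis, Rpia and Taldo1 had the highest levels per kilobase. Rpia (ENSMUSG00000053604, chr6:70765720-70792232, reverse strand) encodes ribose 5-phosphate isomerase and was measured at 135, 138 and 153 CPM in the controls and at 79.0, 133 and 117 CPM in the delipidated embryos. Every delipidated library was below every control library, with delipidated library 2 close to the lowest control and delipidated library 1 farthest below it. The means were 142.0 ± 9.93 and 109.6 ± 27.7 CPM (SD, n = 3), at a log2 fold change of -0.37 (SE 0.25, adjusted p = 1.00), or -0.18 without delipidated replicate 1. Taldo1, transaldolase, was measured at 27.5, 75.5 and 41 CPM in the controls and at 45.7, 45.0 and 13.5 CPM in the delipidated embryos. Control library 2 was the highest and delipidated library 3 the lowest, and the log2 fold change was -0.47 (SE 0.49), or 0.02 without control replicate 2. Rpe, the epimerase, ranged from 27.6 to 71.0 CPM and the transketolase gene Tkt from 4.81 to 34.7 CPM, with log2 fold changes of 0.43 and 0.69. The transketolase-like gene Tktl1 was more abundant than Tkt per kilobase in every library, with 68.7% to 97.6% of the sum of the 2 genes.

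Ordered by level per kilobase over all libraries, the highest genes were Ldhb at 143, Pkm at 121, G6pdx at 76.7, Rpia at 23.5, Pgk1 at 22.4, Gapdh at 21.6, Taldo1 at 19.1, Txnip at 17.3, Slc16a1 at 16.5 and Aldoa at 15.2 CPM per kilobase. Ldhb and Pkm did not differ beyond the spread of Ldhb, which had an SD of 43.6 CPM per kilobase in the controls and 79.5 in the delipidated embryos. G6pdx was below Pkm by more than its SD of 29.6 CPM per kilobase in the controls and by less than its SD of 51.4 in the delipidated embryos. From Rpia to Aldoa, neighbors in this order also lay within the spread of the libraries. The order depends in part on the length used. With each part lengthened to allow for reads that overlap its ends, Ldhb, Pkm and G6pdx still led, at 67.0, 55.9 and 39.0 CPM per kilobase, while Slc16a1 moved to rank 5, Aldoa to rank 14, and Slc2a3 came above Slc2a1. At the low end of the first order were Slc2a2, Slc16a7, Hkdc1, Pfkfb2, Eno2, Pfkfb4 and Pklr, all at 0.369 CPM per kilobase or less.

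The counts per exonic part also allow a view of isoforms. Use of parts within a gene could be compared for 28 listed genes, and edgeR's diffSpliceDGE called 0 of them and 0 of the 10052 genes compared (0%). At an unadjusted p under 0.05 there were 0 of the 28 and 90 of all genes (0.895%), and the lowest p of a listed gene was 0.399, for Gapdh. A gene-level F-test on the same fit also called 0 genes, with an unadjusted p under 0.05 for 101 of all genes (1%) and for 1 of the 28, Gapdh, whose p by that test was 0.0104. Of the 41 genes, 24 have annotated coding transcripts that begin at 2 or more separate first exons, 80 in all. Of these, 68 have parts of their own, 22 of the 68 held at least 30 counts over the 6 libraries and 26 held none. In 14 of the 24 genes a single first exon reached 30 counts, in 3 genes (Pfkfb3, Pkm and Ldhb) more than 1 did, and in 7 genes none did.

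For Gapdh, counts began at the downstream first exon, chr6:125165271-125165773, shared by Gapdh-203, Gapdh-207, Gapdh-209 and Gapdh-212. It held 154, 106 and 69 counts in the controls and 60, 32 and 31 counts in the delipidated embryos, while the upstream first exon at chr6:125166394-125166467 held 0 in all libraries. As a share of the counts of Gapdh, the downstream exon held 9.51%, 7.48% and 5.07% in the controls and 3.97%, 3.27% and 2.91% in the delipidated embryos, which did not overlap. This share was looked at after the counts were seen, and how many of all genes have such a difference was not determined. First exon shares of Pgam1 (11.9%, 26.5% and 14.5%, then 9.09%, 5.02% and 4.0%) and Hk2 were also lower without overlap. That of Rpia was higher (5.07%, 5.57% and 2.97%, then 6.88%, 8.83% and 5.79%). For Aldoa, a single one of 6 first exons, chr7:126799045-126799254, reached 30 counts, with 125, 91 and 178 counts in the controls and 185, 28 and 327 counts in the delipidated embryos. Ldhb began mostly at the exon of Ldhb-201, chr6:142507853-142507957, which held 216, 136 and 250 counts in the controls and 231, 193 and 460 counts in the delipidated embryos, while that of Ldhb-203 held between 0 and 13. Delipidated library 3 was the highest for the first exons of both Aldoa and Ldhb, as it was for the whole genes. Pkm began mostly at chr9:59656368-59656649, the first exon of Pkm-201, Pkm-202, Pkm-206 and Pkm-207, with 567, 1039 and 1108 counts in the controls and 554, 674 and 552 counts in the delipidated embryos. The 3 other Pkm first exons that reached 30 counts held 77, 31 and 75 counts in total, 60 of the 77 in delipidated library 1. Pfkfb3 used 2 first exons. The upstream exon of Pfkfb3-220, chr2:11553827-11554077, held 8, 33 and 0 counts in the controls and 28, 42 and 5 counts in the delipidated embryos, and the downstream exon at chr2:11501625-11502101, shared by 11 coding transcripts, held 21, 8 and 1 counts and 0, 20 and 65 counts. The exon in the lead differed between libraries of the same group, as in delipidated library 1, where the upstream exon alone had counts, and delipidated library 3, where most were downstream.

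Pkm makes 2 enzymes by a choice between a pair of neighboring coding exons of 167 bases. Exon 9 gives PKM1, a constitutively active form found in adult muscle and brain, and exon 10 gives PKM2, a regulated form found in embryonic and proliferating cells. The M1 exon (chr9:59675029-59675195, forward strand, in Pkm-202) held 29, 31 and 4 counts in the controls and 9, 18 and 38 counts in the delipidated embryos. The M2 exon (chr9:59675568-59675734, forward strand, in Pkm-201) held 104, 154 and 132 counts in the controls and 200, 177 and 177 counts in the delipidated embryos. M2 thus prevailed in all 6 libraries. Its share was 78.2% (95% Wilson interval 70.4% to 84.4%), 83.2% (77.2% to 87.9%) and 97.1% (92.7% to 98.9%) in control libraries 1, 2 and 3. In delipidated libraries 1, 2 and 3 it was 95.7% (92.0% to 97.7%), 90.8% (85.9% to 94.1%) and 82.3% (76.7% to 86.8%). The range was wide within both groups and they overlapped, with means of 86.2 ± 9.77% and 89.6 ± 6.76% (SD, n = 3). The difference of 3.43 points had an exact two-sided permutation p of 0.8, where the smallest p that 3 libraries against 3 allow is 0.1. Without control replicate 1 the difference was -0.555 points. Both exons also lie within the annotated transcript Gm49759 on the same strand (chr9:59672814-59676700), so they were left out of the summed counts of Pkm. The part between the exons that follows M1, chr9:59675196-59675482, which is in no coding exon of Pkm, held 11, 16 and 0 counts in the controls and 0, 0 and 26 counts in the delipidated embryos. Other parts in no coding exon of Pkm did not follow M1 in this way. The part just before M1, chr9:59672960-59675028, held 39, 46 and 23 counts and 51, 69 and 40 counts, and the part just before M2, chr9:59675483-59675567, held 6, 16 and 8 counts and 0, 15 and 2 counts. Counts in such parts were thus found in all libraries, and how much of the M1 count came from unspliced or other RNA was not tested.

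**Figure D3:**
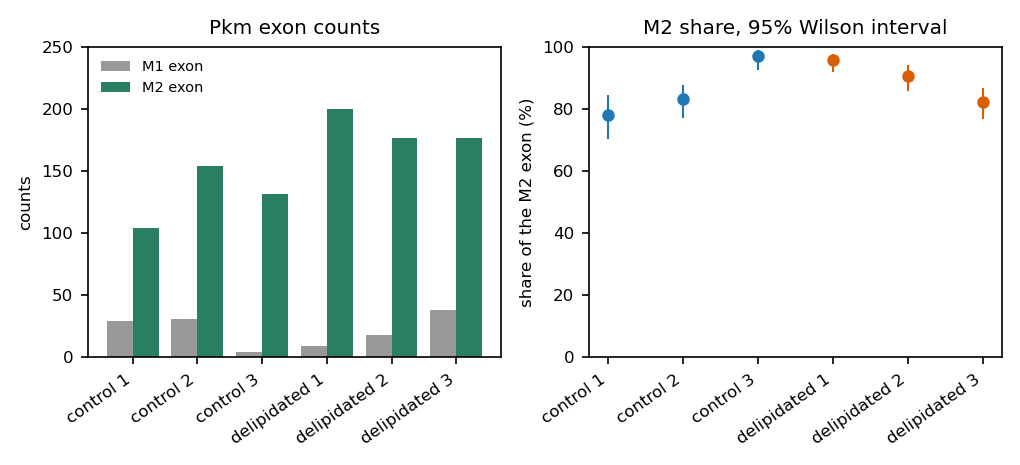
Counts of the alternative M1 and M2 exons of Pkm in each library (left) and the share of M2 in their sum, in percent, with 95% Wilson intervals (right). The share lies between 78.2% and 97.1%, and the groups overlap.

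The sequences of the exons are shown because a read is assigned to M1 or M2 by them. Of the 167 bases, 64 differ and 103 are alike (61.7%), and capitals mark the bases that differ between the exons, which are given 5′ to 3′ on the forward strand of GRCm38.
Pkm M1 exon: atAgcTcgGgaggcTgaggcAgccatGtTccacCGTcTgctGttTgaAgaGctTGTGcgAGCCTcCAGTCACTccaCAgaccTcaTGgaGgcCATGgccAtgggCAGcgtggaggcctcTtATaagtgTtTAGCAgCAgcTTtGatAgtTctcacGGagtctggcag
Pkm M2 exon: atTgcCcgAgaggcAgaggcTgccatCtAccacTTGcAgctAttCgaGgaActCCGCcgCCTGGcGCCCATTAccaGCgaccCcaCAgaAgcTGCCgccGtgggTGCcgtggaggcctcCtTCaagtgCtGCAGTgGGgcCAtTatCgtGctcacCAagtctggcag

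Other genes of these pathways were read from the same test. Of these 88 genes, listed under 89 symbols since Mgea5 and Oga name the same gene, all were found and 64 were tested, of which edgeR called 0, with 38 positive and 26 negative fold changes and a median of 0.08. At an unadjusted p under 0.05 there were 3, beside 2.89% of all genes tested, and DESeq2 without a filter on low counts called 1, Mlxipl. Among the 64, the groups did not overlap for 3, Mlxipl and Stx4a, both higher, and Slc2a8, lower, beside 8.86% of all genes tested. Of the genes with too few counts to be tested, Prps2 had 41, 5 and 26 counts in the controls and 0 in every delipidated library, and G6pc had 12, 8 and 12 counts and 0, 0 and 2 counts. Stx4a, Slc2a8, Prps2 and G6pc are named after their values were seen. Mlxipl encodes ChREBP, the carbohydrate response factor whose known targets include Pklr and Txnip. It was measured at 64.3, 45.5 and 50.8 CPM in the controls and at 122, 196 and 89.4 CPM in the delipidated embryos, all above the controls, at a log2 fold change of 1.34 (SE 0.31, with an unadjusted edgeR p of 0.00114). Its adjusted p was 1.00 with edgeR and 0.0303 with DESeq2 without a filter, and over all alternatives it ranged from 0.00426 to 1.00. Beside it, Txnip and Pklr had log2 fold changes of -0.25 (SE 0.36) and -0.14 (SE 1.43), where Pklr had at most 32 counts in a library. Targets of ChREBP were not compared as a set, so whether they changed was not tested. Uap1, which makes UDP-GlcNAc in the hexosamine pathway, was measured at 62.9, 142 and 70.6 CPM in the controls and at 151, 226 and 116 CPM in the delipidated embryos. Control library 2 lay among the delipidated libraries, and the log2 fold change was 0.84 (SE 0.35, with an unadjusted edgeR p of 0.0331). Usf1, an E-box binding factor of lipogenic and glycolytic genes, was measured at 92.0, 174 and 160 CPM in the controls and at 90.7, 71.1 and 93.4 CPM in the delipidated embryos. The groups overlapped by control library 1 alone, at a log2 fold change of -0.74 (SE 0.28, with an unadjusted edgeR p of 0.0215).

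These were the 1 hexosamine gene and 2 of the 8 transcription factors (4 positive, 4 negative) at an unadjusted p under 0.05, and the other lists had none. Among other glycolysis paralogs, 8 of 17 genes were tested (6 positive, 2 negative), with Bpgm at 55.3 and Gpd1l at 50.9 CPM per kilobase the highest. Testis forms such as Pgk2, Gapdhs and Aldoart1 had few counts and were not tested. For other hexose and lactate transporters it was 11 of 16 (5 positive, 6 negative), led by Bsg, the partner protein of MCT1, at 24.5 and Stx4a, a syntaxin of vesicle fusion, at 5.69 CPM per kilobase. Prps1 at 164 and Prpsap1 at 38.1 CPM per kilobase, which make or bind the enzyme of phosphoribosyl pyrophosphate, led the other pentose phosphate and ribose genes, of which 6 of 10 were tested (1 positive, 5 negative). Gluconeogenesis had 5 of 9 tested (3 positive, 2 negative), with Fbp1 at 2.84 and Pcx at 2.63 CPM per kilobase, and Pck1 had 0 counts in all libraries. All 13 glycogen genes were tested (8 positive, 5 negative), led by Gyg at 30.2 and Gys1 at 5.21 CPM per kilobase. For the hexosamine and O-GlcNAc genes it was 10 of 10 (8 positive, 2 negative), and for polyol and fructose genes 3 of 5 (3 positive, 0 negative), led by Sord at 24.5 and Akr1b3 at 4.93 CPM per kilobase.

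A shared promoter feature was looked for in the 300 bases around the transcription start, from 250 before to 50 after it, of RefSeq (GRCm38.p6). The E-box CACGTG, which reads the same on both strands and is bound by factors of the USF and MYC type, was present for 5 of the 37 listed genes with a promoter there (13.5%), namely Pfkm, Pfkfb2, Pfkfb3, Slc16a1 and Ldha with 2 matches. Over all genes it was present in 2187 of 27025 (8.09%). A match is a description of these letters and not a binding site.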

How the data were processed

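RNA was measured in 3 control and 3 delipidated libraries, each of 3 pooled embryos. The deposited values are raw counts, in which uniquely mapped reads were counted for each exonic part (exons cut where annotated transcripts differ), made by the authors with bcl2fastq 2.20, Trimmomatic 0.36, STAR 2.5.2b and featureCounts on mm10, without normalization. Parts were added up per gene identifier. Of 425461 parts, 33309 carry joined identifiers of overlapping genes, and those that overlap exons of a single gene were given to it, which left out 2.49% to 2.57% of the counts of a library. Reads that span parts enter each of them, so sums exceed read numbers. Unique reads make near-identical copies and pseudogenes of Gapdh, Eno1, Pgam1, Ldha, Aldoa, Tpi1 and Pkm uncertain, and reads were counted for genes of either strand, as parts with the same ends on both strands show, a check added after the counts were seen.

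Groups were compared over all genes with edgeR 4.0.16 in R 4.3.3 (filterByExpr at 10 counts and a total of 15, TMM, quasi-likelihood test, no covariates) and Benjamini-Hochberg adjustment, and genes were called past a log2 fold change of 1 at an adjusted p under 0.05. The fit's common coefficient of biological variation was 0.663. Standard errors (SE) are the absolute log2 fold change divided by the square root of the F statistic of that test. Part use was tested with diffSpliceDGE on parts with at least 10 counts in 3 libraries, and the M2 share with an exact permutation test. The gene and part-use tests were also run on simulated counts. The simulated parts varied less than the genes of these data and shared no reads. That run therefore cannot show how many changes of part use would be found here. Lists are described by counts and medians, without a test. Which genes passed the count filter by 1 group alone, and the sums in the part with most counts, were looked at after the values were seen. Alternatives were DESeq2 1.42.0 without a filter, its size factors, edgeR with no filter or with mean counts of 50 or more, each library left out, the replicate number as a block, limma-voom with limma 3.58.1, single identifiers, the part with most counts, parts with at least 30 counts, a gene-level F-test and other gene lengths. Exons came from GENCODE vM21 on GRCm38, sequences from that build, and tables were made with Python 3.11.15.

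The listed genes and all lists were chosen with earlier results of these data known. In each role, the 2 genes with the highest level per kilobase and every gene with an unadjusted p under 0.1 are given in full, and the others by range and counts. From the other lists, genes called or with an unadjusted p under 0.05 are named, and otherwise the 2 with the highest level per kilobase.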

Additional observations from a re-analysis of the deposited data

How the results depend on the processing

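Of the 22 genes given in full, 13 kept the sign of their fold change under every alternative in which they were tested, and 9 changed it under at least 1. Gapdh, Eno2, Eno3, Pkm, Gpd1 and Rpia were among those that kept it. Their groups did not overlap, so leaving out a library could not turn the difference in means, and the kept sign there supports nothing. Eno2 and Eno3 were also tested by the counts of 1 group alone. Of 302 fold changes under the alternatives, 289 kept their direction and 13 did not. Listed genes called numbered 0 under every alternative. Over all genes, DESeq2 without a filter called 9 higher and 40 lower, edgeR without a filter 5 and 25, and the replicate number as a block 0 and 1, the marker Vim. Both settings without a filter moved the median log2 fold change of all genes, to -0.17 with DESeq2 and -0.18 with edgeR.

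With each library left out in turn, log2 fold changes ranged from -0.37 to 0.34 for Aldoa, -0.36 to 0.41 for Ldhb, -0.52 to 0.49 for G6pdx, -0.20 to 0.04 for Pgd, -0.74 to 0.02 for Taldo1, -0.07 to 1.38 for Pfkfb3, -0.55 to 0.03 for Txnip and -0.30 to 0.50 for Slc2a1. Without a change of sign, they ranged from -0.63 to -0.21 for Slc2a3, -1.23 to -0.07 for Hk1, -1.21 to -0.42 for Hk2, -0.84 to -0.27 for Pfkl, -2.15 to -0.04 for Pfkfb1, -0.78 to -0.42 for Gapdh, -0.46 to -0.15 for Pgk1, -5.36 to -3.59 for Eno2, 2.66 to 3.21 for Eno3, -0.36 to -0.31 for Pkm, 0.03 to 0.39 for Slc16a1, -3.12 to -1.87 for Gpd1, 0.18 to 0.85 for Gpd2 and -0.54 to -0.18 for Rpia. Medians ranged from -0.30 to -0.04 for the listed genes, -0.30 to 0.50 for uptake, -1.21 to -0.18 for hexokinases, -0.40 to -0.04 for upper and -0.46 to -0.15 for lower glycolysis, -1.20 to 0.57 for the Pfkfb genes, -0.02 to 0.48 for lactate genes, -1.36 to -0.59 for glycerol 3-phosphate genes, -0.42 to -0.12 for the oxidative and -0.34 to 0.25 for the non-oxidative pentose phosphate genes. Genes called for part use numbered 0 to 1 (Med21 without control replicate 1), and the difference in the M2 share ranged from -0.555 to 8.88 points. In the part with most counts alone, values that moved by over 1.5 times were -0.08 for Slc16a1, 0.06 for Txnip, 0.38 for Slc2a1, -0.07 for Hk2, 0.48 for Aldoa, -1.20 for Pfkfb1, -0.08 for Gapdh, -0.11 for Pgk1, 0.09 for Ldhb, -1.05 for Gpd1, 0.87 for Gpd2, 0.32 for G6pdx and -0.31 for Pgd, and the log2 ratio of the lower glycolysis sums was -0.18. The median of the listed genes was -0.25 with limma-voom, that of the glycerol 3-phosphate genes 0.45 at a mean count of at least 50, where Gpd2 alone was left, and that of the non-oxidative genes -0.38 with single identifiers, where Tkt had no value. For the other changes the cause was not tested. Medians moved by less than the spread between libraries in 148 of 154 cases and log2 ratios of sums in 142 of 143. Of the 10 genes highest per kilobase, 9 remained with longer parts (Rpe in place of Aldoa) and 9 with the length of the parts that held counts (Ldha in place of Slc16a1). Pkm, Tkt, Pgls and Pfkfb2 had no value with single identifiers.

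The replicate number was tried as a block although the samples are not paired by it. The correlations of libraries with the same number, about the group means, were -0.0836, 0.0698 and 0.0428, and with that block the difference in the M2 share was 3.43 points (exact p = 0.75, smallest possible 0.25). With 3 libraries a group and a median standard error of 0.495, a missing call says little about differences near a log2 fold change of 1, and less for genes with few counts such as Eno2 and Eno3.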
